A study of Arabidopsis thaliana with 6 samples.

Results

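The pair of Arabidopsis thaliana mutants lhp1-3 and importin123 were pooled as 1 group of 4 libraries and set against the 2 libraries of the wild type Col-0, to describe the response that both mutants share. The genes described were the nuclear loci, those with IDs from AT1G to AT5G, with a mean of at least 10 RPKM (reads per kb of gene span scaled to library size by the authors) over the 6 libraries. They numbered 7474 of 34262 features in the table and of 32548 nuclear loci. Near that limit, 780 loci lay between 9 and 10 RPKM and were left out, and 658 lay between 10 and 11 RPKM and were kept.

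All plants were whole seedlings in the Col-0 background, raised in long days (16 h light, 8 h darkness) on plates of MS salts holding 0.8% sucrose, and were collected at ZT12, 12 h after dawn. Col-0 carried no mutation. The line lhp1-3 carried a mutant allele of LHP1, and importin123 was the impα triple mutant of the series title. Poly(A) RNA was sequenced in 2 libraries per genotype. Nothing in the labels says that the 2 came from separate plantings, so a p-value here speaks of the scatter among these libraries, part of which may be technical.

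LHP1 (LIKE HETEROCHROMATIN PROTEIN1) binds histone H3 methylated by the Polycomb complex and helps to keep developmental genes silent. Importin alpha proteins bind nuclear localisation signals and, with importin beta, carry cargo through the nuclear pore. Both are therefore placed to act on many genes at once, LHP1 at chromatin and importin alpha through the proteins that reach it.

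The mutated genes were read first, as deposited RPKM. LHP1 stood at 5.46 and 5.11 in the Col-0 pair, 3.87 and 3.21 in the lhp1-3 pair and 5.77 and 6.13 in the importin123 pair. IMPA1 stood at 23.6 and 22.6 in the Col-0 pair, 17.8 and 17.4 in the lhp1-3 pair and 3.43 and 3.06 in the importin123 pair. IMPA2 stood at 33.2 and 31.2 in the Col-0 pair, 22.3 and 24.9 in the lhp1-3 pair and 2.33 and 2.03 in the importin123 pair. IMPA3 stood at 11.2 and 10.4, at 9.84 and 8.43, and at 4.16 and 3.81 in the same order. Each of the 4 genes was lowest in the libraries whose label names it, and LHP1 was lowered less than IMPA1 and IMPA2. In the lhp1-3 pair, IMPA1 and IMPA2 also stood below Col-0 in RPKM. Scaled as in the tests below, they changed there by -0.11 and -0.16 on the log2 scale. Part of the lower LHP1 value may therefore come from the RPKM scale, which was not tested. LHP1 and IMPA3 lay below the limit of 10 RPKM, so they are not among the genes tested.

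The 4 mutant libraries stood apart from Col-0 as libraries. They held 70137900 to 90725000 counts, against 78775100 and 95101900 in Col-0. The genes described took 79.6% and 79.5% of the counts in Col-0 and 56.9% to 63.5% in the mutants. Chloroplast features took 2.95% and 3.27% in Col-0 and 13.7% to 18.7% in the mutants. The median of 2305 nearly silent nuclear genes, called the floor below, was 0.207 and 0.249 RPKM in Col-0 and 1.32 to 1.79 RPKM in the mutants. The groups did not overlap in these 3 measures (exact permutation test, two-sided, p = 0.0667 for each, the smallest p that 4 libraries against 2 allow). Their part in the changes below was not tested, and genotype and library quality cannot be told apart. After subtraction of the floor, 71 of the 96 called genes chosen by rule or list or picked out kept their call and 25 lost it. Such losses are given below with their adjusted p for the genes described.

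**Figure D1:**
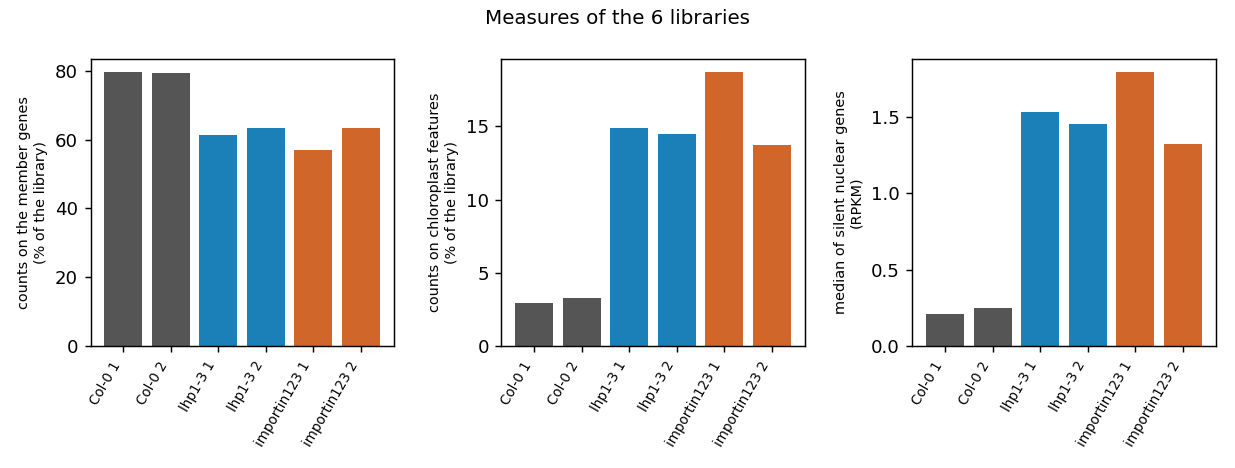
Bars show, for each of the 6 libraries, the share of counts on the genes described, the share on chloroplast features and the median RPKM of silent nuclear genes. The 4 mutant libraries were below Col-0 in the first measure, at 56.9% to 63.5%, and above it in the others.

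In the pooled test (edgeR quasi-likelihood, Benjamini-Hochberg adjusted p under 0.05) 368 genes, 4.92% of those tested, were higher in the mutants and 215, or 2.88%, were lower, 7.8% in all. At least a 2-fold change was found for 189 of the higher and 89 of the lower genes, 2.53% and 1.19% of those tested and 3.72% together. The 4 mutant libraries lay above both Col-0 libraries for 24.1% of genes and below both for 25.2%, so the groups were apart for 49.3%. The pooled test takes the difference between the mutants as part of its spread, so by construction the genes it calls differ less between the mutants. With a separate mean for each genotype the common biological coefficient of variation was 0.113 in place of 0.219, and the average of the mutants was higher for 1599 genes (21.4%) and lower for 1850 (24.8%). The called set depended on which genes were fitted together: with the protein-coding genes alone, without matches to organelle genomes or rRNA regions, 26 were higher and 17 lower (added after the data were seen). The limit of 10 RPKM was set on the mean of all libraries, so some genes passed it only through the group where they were high. For these the choice itself favoured a gap between the groups. With at least 10 RPKM in both groups, 90 genes were higher and 96 lower. Of the 96 called genes chosen or picked out, 27 kept their call there, 32 lost it and the others were not tested. Without any 1 of the libraries in turn, 156 to 289 genes were higher and 35 to 128 lower, and 151 of the 368 and 30 of the 215 were called in all 6 such fits. Of those 151 rises, 126 matched an organelle genome and 7 lay near rRNA genes, and among protein-coding genes 13 of 221 rises and 9 of 122 falls held. Fold changes are relative to the scale of the genes described: scaled over all nuclear genes, their median change was -0.68 on the log2 scale, so a rise smaller than that has the other sign there.

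The kind of gene divided the calls. Of the 128 genes that match the mitochondrial or chloroplast genome, 127 rose, with a median log2 change of 3.33, against 221 rises (3.26%) and 122 falls (1.8%) among 6788 protein-coding genes without such a match (5.05% called), whose median was 0.01. Most of them, 124, lie on chromosome 2, and 126 are matched over at least 99% of their span. The limit on RPKM was set on the mean of all libraries, so loci of this kind could enter through the mutants alone. Those that did not rise could be left out. The share of 127 in 128 is therefore partly set by that choice and cannot be weighed against the 3.26%. How many entered in this way was not counted. ABCI4, a nuclear-annotated locus of a cytochrome c assembly protein, had 24.6 and 27.0 CPM (counts scaled to the library total on the genes described) in the Col-0 pair, 281 and 282 in the lhp1-3 pair and 373 and 251 in the importin123 pair, a log2 change of 3.52 ± 0.21 (SE). The mitochondrial share of counts was 0.128% and 0.124% in Col-0 and 0.457% to 0.639% in the mutants, and their part in these rises was not tested. Reads of the organelle and of its nuclear copy cannot be told apart in such loci. Of 13 loci near rRNA genes, 8 (61.5%) rose, against 4.92% higher over all genes, with a median of 3.17. These loci too could enter through the mutants alone.

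Falls were more frequent than rises among snoRNA, lncRNA and antisense loci. Among 66 snoRNA loci, whose products guide rRNA modification, 28 (42.4%) fell and 0 rose at an adjusted p under 0.05, and the median log2 change was -0.68. U60.1F had 17.3 and 17.1 CPM in the Col-0 pair, 5.65 and 5.02 in the lhp1-3 pair and 7.49 and 4.59 in the importin123 pair. Its log2 change was -1.60 ± 0.20, and the call was lost without either Col-0 library (-1.59 and -1.61). Among 369 lncRNA loci 47 (12.7%) fell and 6 (1.63%) rose, and among 41 antisense loci 6 (14.6%) fell and 1 (2.44%) rose, against 2.88% lower and 4.92% higher over all genes. Few of these falls held in all 6 fits without 1 library: 8 of the 28 snoRNA, 7 of the 47 lncRNA and 1 of the 6 antisense loci. Of 13 tRNA loci 6 fell and 4 rose, with changes from -6.14 to 6.23. Mature snoRNAs and tRNAs mostly carry no poly(A) tail, and the libraries were poly(A)-selected. Whether counting used strand is not given in the sources used here, so antisense and overlapping loci may share reads.

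**Figure D2:**
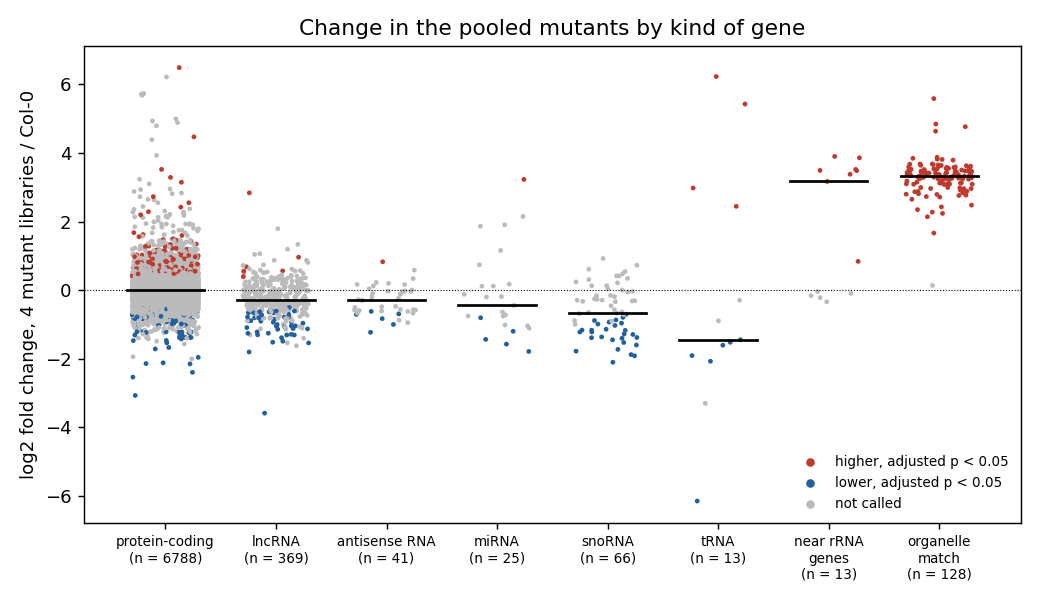
Each point is a gene, with its log2 fold change of the 4 mutant libraries over Col-0 on the y axis, by kind of gene on the x axis, and the black bars are medians. Genes matching an organelle genome lie at a median of 3.33 and snoRNA loci at -0.68, while protein-coding genes centre on 0.01. The choice of genes by mean RPKM could favour high values among the organelle matches.

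The miRNA loci showed both directions, with 5 of 25 lower and 1 higher, against 2.88% lower and 4.92% higher over all genes. Both MIR5642 loci, near rRNA genes, rose besides. Mature sequences are shown because the changed loci encode distinct seeds, apart from the MIR5642 pair, whose mature sequences are identical. They were read from the RefSeq annotation of TAIR10.1, with the seed, bases 2 to 8, in capitals and T for U.
miR157a-5p: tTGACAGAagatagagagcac
miR157a-3p: gCTCTCTAgccttctgtcatc
miR5657: tGGACAAGgttagatttggtg
miR1888a: tAAGTTAAgatttgtgaagaa
miR852: aAGATAAGcgccttagttctg
miR5014a-5p: aCACTTAGttttgtacaacat
miR5014a-3p: tTGTACAAatttaagtgtacg
miR854b: gATGAGGAtagggaggaggag
miR5642a: tCTCGCGCttgtacggcttt
miR5642b: tCTCGCGCttgtacggcttt

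MIR157a encodes a miRNA that represses SPL genes, the regulators of the change from juvenile to adult growth. Its locus had 2.85 and 2.87 CPM in the Col-0 pair, 0.962 and 0.879 in the lhp1-3 pair and 1.08 and 0.917 in the importin123 pair. The log2 change was -1.57 ± 0.14 (adjusted p = 0.00107). MIR5657 changed by -1.79 ± 0.17, from 13.6 and 11.9 CPM in Col-0 to between 3.21 and 4.57 CPM in the mutants. MIR854b had 0.83 and 0.918 CPM in Col-0 and 6.21 to 10.9 CPM in the mutants, a log2 change of 3.23 ± 0.28. Near-identical sequence elsewhere covers 100% of the MIR854b span, so its reads can be misplaced and the change may not be of this locus. MIR157a and MIR854b, at means of 11.6 and 16.5 RPKM, may have passed the limit on mean RPKM through 1 group only. The calls of MIR157a, MIR5657 and MIR854b held in every fit that left out 1 library, which lifts neither of these limits. MIR1888a fell by 1.43 ± 0.28 on the log2 scale, and its call was lost without any library but the first of lhp1-3 (-1.29 to -1.50) and after floor subtraction (adjusted p = 0.0537). MIR852 and MIR5014a changed by -0.80 ± 0.13 and -1.2 ± 0.22. The counts are of long RNA over the locus and not of the mature miRNA.

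RPL12-B had the lowest log2 change of the protein-coding genes called. Its mean of 10.2 RPKM passed the limit of 10 only through Col-0, at 23.4 and 27.8 RPKM, and the mutant libraries held 1.93 to 2.92 RPKM, near their floor of 1.32 to 1.79, so it had to differ and its rank supports nothing. It codes for a plastid ribosomal protein L12 and lies between RPL12-A and RPL12-C on chromosome 3. It had 18.2 and 21.9 CPM in the Col-0 pair, 2.32 and 1.84 in the lhp1-3 pair and 2.87 and 2.54 in the importin123 pair, a log2 change of -3.07 ± 0.19 (adjusted p = 0.000483). Its neighbours did not pass: RPL12-A changed by -0.16 ± 0.18 and RPL12-C by -0.02 ± 0.12. The tRNA locus AT3G27845, between RPL12-B and RPL12-C, fell from 195 and 229 RPKM in Col-0 to between 0.394 and 5.02 RPKM. It too passed the limit of 10 only through Col-0. After subtraction of the floor RPL12-B changed by -4.30. Against the shared Col-0 libraries RPL12-B changed by -3.27 in lhp1-3 and by -2.89 in importin123.

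LBD32, of the LOB-domain family of plant transcription factors, had 51.9 and 63.7 CPM in the Col-0 pair, 7.66 and 9.81 in the lhp1-3 pair and 12.9 and 13.6 in the importin123 pair. The log2 change was -2.39 ± 0.24 (adjusted p = 0.00238), and the mutants differed from each other by 0.60 (adjusted p = 0.031). Its neighbour CYP706A2 changed by -0.17 ± 0.14. On the same chromosome, AT4G22513 and AT4G22517, a pair of lipid-transfer-like genes, fell by 1.71 ± 0.22 and 1.67 ± 0.21 on the log2 scale. AT4G22513 had 21.3 and 28.1 CPM in Col-0 and 6.27 to 9.92 in the mutants, and its call was lost without the second Col-0 library (-1.50). It passed the limit of 10 RPKM only through Col-0, as the mutants held 6.25 to 9.53 RPKM. AT4G22517 had 24.5 and 38.4 CPM in Col-0 and 8.49 to 11.3 in the mutants. The mutants held 8.99 to 11.3 RPKM of AT4G22517, against 30.3 and 46.9 in Col-0, so it may have passed the limit through Col-0 alone. Both overlap AT4G22510 on the other strand, which stood at 13.1 and 18.8 RPKM in Col-0 and 4.39 to 5.52 RPKM in the mutants, so reads of the 3 loci may be shared.

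The promoters of RPL12-B, AT4G22513 and AT4G22517, picked with their values in view, are shown because the fall of RPL12-B was not shared by the nearest protein-coding neighbours tested and the other two are neighbouring genes that fell together. Each runs from 250 bases before to 50 after the annotated start, read from RefSeq TAIR10.1 on the plus strand, with matches to the motifs searched in capitals.
RPL12-B, chr3:10323104-10323403: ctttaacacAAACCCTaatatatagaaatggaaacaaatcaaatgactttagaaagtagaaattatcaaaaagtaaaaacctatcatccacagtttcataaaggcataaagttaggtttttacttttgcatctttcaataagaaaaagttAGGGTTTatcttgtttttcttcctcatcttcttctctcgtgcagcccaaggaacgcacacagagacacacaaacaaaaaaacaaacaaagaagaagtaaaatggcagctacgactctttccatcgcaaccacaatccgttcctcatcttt
AT4G22513, chr4:11854559-11854858: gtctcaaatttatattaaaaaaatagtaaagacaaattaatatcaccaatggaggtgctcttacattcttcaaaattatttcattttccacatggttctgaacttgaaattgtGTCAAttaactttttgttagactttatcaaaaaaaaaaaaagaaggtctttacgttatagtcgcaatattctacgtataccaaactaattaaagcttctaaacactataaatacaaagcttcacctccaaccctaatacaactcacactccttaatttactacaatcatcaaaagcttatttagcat
AT4G22517, chr4:11856493-11856792: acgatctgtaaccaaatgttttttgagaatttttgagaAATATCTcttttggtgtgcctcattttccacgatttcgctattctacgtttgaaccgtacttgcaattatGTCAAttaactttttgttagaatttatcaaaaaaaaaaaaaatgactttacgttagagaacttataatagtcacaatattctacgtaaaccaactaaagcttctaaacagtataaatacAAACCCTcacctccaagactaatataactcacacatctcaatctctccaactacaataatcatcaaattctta

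The capitals in RPL12-B mark a telo box (AAACCCT) and its reverse, 241 and 100 bases before the start. AT4G22513 and AT4G22517 each hold a W-box core (TTGAC) in reverse, and AT4G22517 holds an evening element core (AATATCT) and a telo box as well. Over all 6788 promoters of this kind, searched on both strands, the telo box was found in 8.87%, in 8.60% of the genes that rose and in 5.74% of those that fell. The evening element core was found in 13.1% of all, 10.4% of the risers and 13.9% of the fallers, and the W-box core in 50.4%, 47.5% and 51.6%. The G-box (CACGTG) was found in 9.97%, 9.05% and 13.1%, the drought and cold element core (CCGAC) in 16.1%, 17.2% and 13.9%, and the I-box (GATAAG) in 17.2%, 13.6% and 18.9%. The GCC box (GCCGCC) was found in 2.70%, 1.36% and 3.28%, and the rapid stress response element (CGCGTT) in 4.17%, 3.17% and 3.28%. Site II (GGCCCA), common in genes of protein synthesis, was found in 20.1% of all, 19.0% of the risers and 5.74% of the fallers, 7 of 122. These shares are descriptions, and a match is not a shown site.

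Further falls were found in AT3G05727, AT3G16660, LTP5 and GRP23. AT3G05727, of a pollen coat protein family, had 100 and 127 CPM in the Col-0 pair, 25.6 and 25.2 in the lhp1-3 pair and 27.4 and 24.7 in the importin123 pair, a log2 change of -2.14 ± 0.11. AT3G16660, of the Ole e 1 and extensin family, fell by 2.12 ± 0.18 on the log2 scale. Its neighbour AT3G16670 fell by 2.15 ± 0.31, a call lost without either Col-0 library (-2.09 and -2.20). LTP5, a lipid transfer protein, had 333 and 316 CPM in Col-0 and 98.2 to 152 CPM in the mutants. Its change was -1.38 ± 0.17, and the call was lost without either Col-0 library (-1.34 and -1.42). The glycine-rich protein gene GRP23 went from 231 and 254 CPM in Col-0 to between 89.6 and 111 CPM, a change of -1.30 ± 0.12. Of 43 genes whose products are named as lipid transfer or related inhibitor proteins, 6 fell and 0 rose, against 2.88% lower over all genes, with a median of 0.00 and a range up to 5.68; the family was noticed after its calls were seen.

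Metallothioneins are small cysteine-rich proteins that bind copper and zinc. Of 6 measured, 2 (MT1A and MT2B) fell and 0 rose, against 2.88% lower over all genes, with a median of -0.30 and a range up to 1.67. MT1A had 961 and 867 CPM in the Col-0 pair, 389 and 355 in the lhp1-3 pair and 408 and 421 in the importin123 pair, a log2 change of -1.22 ± 0.12 (adjusted p = 0.00221). For MT1A the call held without any 1 library. MT2B, at 2200 and 2360 CPM in Col-0 and 1350 to 1550 CPM in the mutants, fell by 0.62 ± 0.13. Its call was lost without any 1 library (-0.57 to -0.67) and after floor subtraction (-0.51, adjusted p = 0.0897). COPT1, the copper transporter, fell by 0.67 ± 0.13, and kept its call only without the second lhp1-3 library (-0.59 to -0.75 over the 6), and lost it after floor subtraction (adjusted p = 0.0537). On the list of iron and copper genes, 0 of 19 passed the pooled test at an adjusted p under 0.05, and the list's median was -0.04 in lhp1-3 and 1.86 in importin123.

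Several early stress and defence genes fell. CBP60G, a calmodulin-binding regulator of salicylic acid synthesis, had 77.9 and 122 CPM in the Col-0 pair, 52.0 and 48.0 in the lhp1-3 pair and 41.8 and 45.2 in the importin123 pair. Its log2 change was -1.09 ± 0.19 (adjusted p = 0.0228), with -1.0 in lhp1-3 and -1.2 in importin123. At a mean of 14.5 RPKM, CBP60G passed the limit on mean RPKM only through Col-0, so the choice itself favoured a fall. The call held without the first Col-0 or the first lhp1-3 library only; without the second Col-0 library the change was -0.74. RRTF1, an ERF transcription factor of redox signalling, had 38.8 and 89.8 CPM in the Col-0 pair, 28 and 23.4 in the lhp1-3 pair and 19.1 and 18.3 in the importin123 pair. Its change of -1.53 ± 0.34 became -0.81 without the second Col-0 library, and the call held only without the first one (-2.02). It was also lost after floor subtraction (adjusted p = 0.0537). These were the 2 of 24 genes on the touch, wound and early stress list that passed. A further 7 had all 4 mutant libraries below both Col-0 libraries, 9 in all against 25.2% over all genes. The list's median was -0.47, against 0.00 over all genes.

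Other genes of the same responses were picked out with their values in view. PUB22 and PUB23 code for U-box ubiquitin ligases that restrain immune responses. They were the 2 calls among 8 plant U-box genes, against 2.88% lower over all genes. The median of the 8 was -0.04 and their highest change 0.45. PUB22 went from 73.4 and 91.6 CPM in the Col-0 pair to 46.2 and 44.2 in the lhp1-3 pair and 36.6 and 33.7 in the importin123 pair, a log2 change of -1.04 ± 0.16. Its call was lost without the second Col-0 library (-0.87). PUB23 fell by 0.90 ± 0.20, from 154 and 246 CPM to between 94.3 and 118 CPM, but changed by -0.53 without the second Col-0 library. ACS6, an enzyme of ethylene synthesis, fell by 1.02 ± 0.21, from 439 and 591 CPM in Col-0 to between 205 and 301 CPM. CAF1a, a deadenylase of messenger RNA, fell by 0.92 ± 0.17, MAPKKK14 by 0.96 ± 0.21 and HIR2, a membrane protein linked to cell death, by 1.2 ± 0.22. NUDT4 fell by 1.38 ± 0.24. In these genes the second Col-0 library was the higher of the pair, and without it the changes were -0.79 for ACS6, -0.61 for CAF1a, -0.53 for MAPKKK14, -1.10 for HIR2 and -1.01 for NUDT4, with no call. The calls of ACS6 were lost without any 1 library, and those of PUB23, CAF1a and MAPKKK14 held only without the first Col-0 library (-1.2, -1.17 and -1.29). HIR2 kept its call only without the first lhp1-3 library. NUDT4 lost it also without the second library of either mutant (-1.38 and -1.34). After floor subtraction PUB23, ACS6 and MAPKKK14 were not called (adjusted p = 0.0736, 0.0621 and 0.0548).

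**Figure D3:**
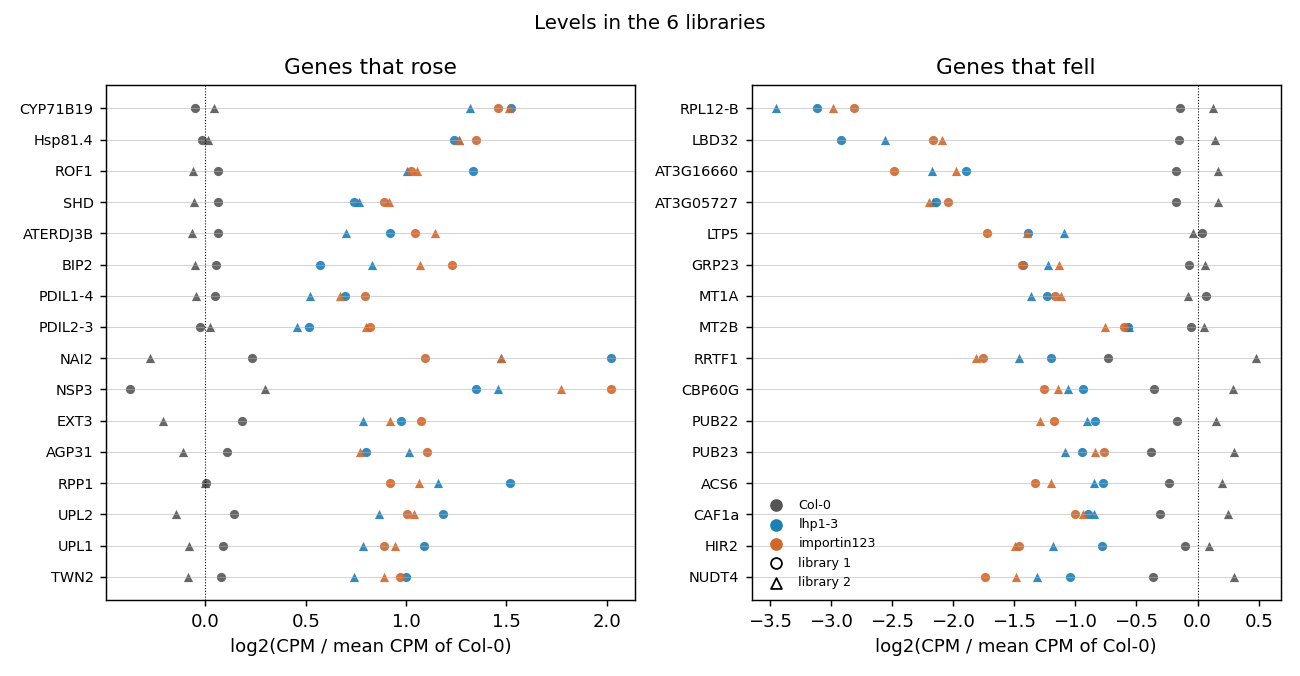
Points give, for each gene on the y axis, log2 of the CPM in a library over the mean of Col-0 on the x axis, by genotype colour and library shape. In both panels the 4 mutant libraries lie on 1 side of both Col-0 libraries. Genes chosen by largest change or highest level had to do so. In the stress genes RRTF1, CBP60G, PUB23 and CAF1a the Col-0 libraries themselves lie far apart.

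Other genes fell in both mutants at a moderate size. UGT72E1, a glucosyltransferase of monolignols, went from 152 and 160 CPM in the Col-0 pair to 83.1 and 73.0 in the lhp1-3 pair and 85.4 and 90.6 in the importin123 pair, a log2 change of -0.91 ± 0.11. The call was lost without the second Col-0 library (-0.87). NIA1, a nitrate reductase, had 812 and 584 CPM in wild-type libraries and 357 to 390 CPM in the mutants, a change of -0.91 ± 0.15. It kept the call only without the second Col-0 library (-1.13), and changed by -0.65 without the first. The proline-rich protein gene PRP4 fell by 0.78 ± 0.15 and RAV2, a transcription factor that delays flowering, by 0.73 ± 0.15. Both were lost in at least 5 of the 6 fits without 1 library (PRP4 -0.71 to -0.84, RAV2 -0.61 to -0.83) and after floor subtraction (adjusted p = 0.0501 and 0.0793). SVP, a MADS-box repressor of flowering, went from 93.2 and 99.5 CPM in Col-0 to between 55.6 and 69.1 CPM, a change of -0.59 ± 0.11. Its call was lost without either Col-0 library (-0.64 and -0.55) and without the second library of either mutant (-0.59 and -0.60).

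Photosynthesis genes were mostly lower in the mutants but did not pass the pooled test. Of 25 genes of the photosystems and electron transport, 0 were called at an adjusted p under 0.05 in edgeR. Yet in 21 of them all 4 mutant libraries were below both Col-0 libraries, against 25.2% over all genes, and the median log2 change was -0.50. PSBO1, of the oxygen-evolving complex, had 3910 and 4020 CPM in the Col-0 pair, 2810 and 3260 in the lhp1-3 pair and 2240 and 2710 in the importin123 pair. PSAD1, of photosystem I, had 1130 and 1120 CPM in the Col-0 pair, 691 and 813 in the lhp1-3 pair and 734 and 904 in the importin123 pair, with a change of -0.52 (adjusted p = 0.0904). In the fit with a mean for each genotype, 17 of the 25 were lower, against 24.8% over all genes. Of 15 Calvin cycle genes 12 lay below Col-0 in all mutant libraries, against 25.2% over all genes. In that fit 11 were lower, against 24.8%. Their median was -0.26 in lhp1-3 and -0.73 in importin123. GAPB, a subunit of glyceraldehyde-3-phosphate dehydrogenase, had 3680 and 3560 CPM in the Col-0 pair, 2350 and 2720 in the lhp1-3 pair and 1770 and 1970 in the importin123 pair. The 7 genes on the plastid ribosomal protein list, which was drawn up by product name and leaves out the RPL12 genes, lay below Col-0 in every mutant library, while RPL12-A and RPL12-C did not. On that list AT2G21290 passed the pooled test at -0.50 ± 0.10. Its product name, 30S ribosomal protein S31, gives no compartment, so it may not be a plastid protein. Its call was lost without any 1 library (-0.44 to -0.57). In whole seedlings, fewer cells of a type and less RNA per cell cannot be told apart.

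The light-harvesting genes did not share one direction. The 14 measured had a median of -0.50 in lhp1-3 and 0.66 in importin123. LHCA2 and LHCB4.1 changed by -0.65 and -0.63 in the pooled comparison and LHCB1.1 by 2.63, with no call. Glucosinolate genes were lower mainly in importin123. Of 25, 15 lay below Col-0 in all mutant libraries, against 25.2% over all genes. In the fit with a mean for each genotype 17 were lower, against 24.8%. Their medians were -0.18 in lhp1-3 and -0.71 in importin123, with 0 called in the pooled test. MAM1, of methionine chain elongation, had 361 and 379 CPM in the Col-0 pair, 254 and 221 in the lhp1-3 pair and 40.4 and 64.0 in the importin123 pair. Dark and starvation genes numbered 13, of which 1 was called lower, against 2.88% over all genes. That gene, DRM1, changed by -0.53 ± 0.10 and lost its call without any 1 library (-0.49 to -0.56) and after floor subtraction (adjusted p = 0.064).

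**Figure D4:**
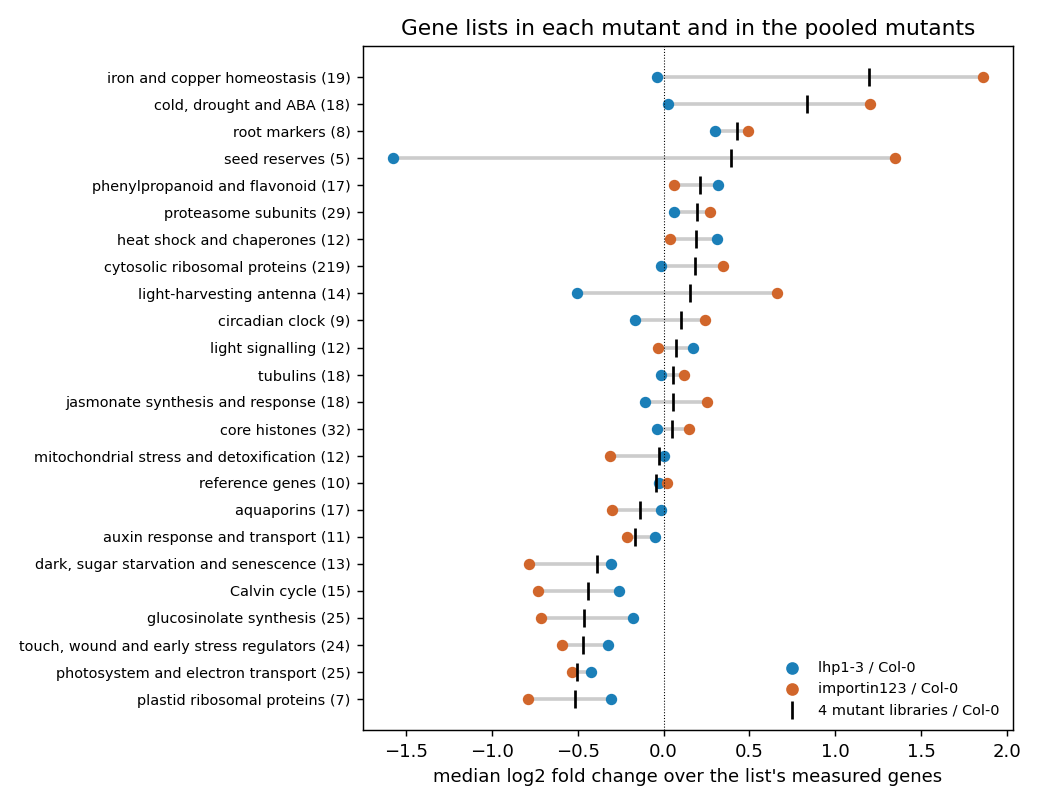
For each list with at least 5 measured genes (number in brackets), points give the median log2 change in each mutant against the shared Col-0 libraries, and the bar that of the 4 mutant libraries pooled. Photosystem genes lie at -0.42 and -0.53 in the mutants, while iron and copper genes lie at -0.04 and 1.86.

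A few chaperone genes rose. Hsp81.4, an HSP90 of the cytosol, had 47.3 and 48.4 CPM in the Col-0 pair, 113 and 115 in the lhp1-3 pair and 122 and 115 in the importin123 pair. Its log2 change was 1.28 ± 0.09 (adjusted p = 0.000492), and the call held without any 1 library. ROF1, a peptidyl-prolyl isomerase that binds HSP90, had 37.4 and 34.3 CPM in Col-0 and 71.9 to 90.4 CPM in the mutants, a change of 1.11 ± 0.13. Its call was lost without the second Col-0 library (1.05). With a mean of 11.7 RPKM, ROF1 passed the limit of 10 only through the mutants. BIP2, the HSP70 of the endoplasmic reticulum, had 203 and 189 CPM in the Col-0 pair, 291 and 348 in the lhp1-3 pair and 459 and 412 in the importin123 pair, a change of 0.94 ± 0.21. The mutants differed by 0.45, and the call held only without the first lhp1-3 library. Without any of the other libraries the change was 0.84 to 1.01. The heat shock and chaperone list had 2 calls, ROF1 and BIP2, among 12 genes, against 4.92% higher over all genes, and its median was 0.19. Of the 10 others, 5 had values below 0, from -0.09 for HSC70-1 to -0.57 for Hsp70-2.

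Further endoplasmic reticulum genes were picked out with their values in view. SHD, its HSP90, had 214 and 197 CPM in the Col-0 pair, 343 and 348 in the lhp1-3 pair and 380 and 387 in the importin123 pair, a log2 change of 0.83 ± 0.12. ATERDJ3B, a J-protein partner of BIP, rose by 0.96 ± 0.14, from 33.2 and 30.4 CPM to between 51.7 and 70.3 CPM. Both calls were lost without either Col-0 library, where SHD changed by 0.89 and 0.77 and ATERDJ3B by 1.03 and 0.90. ATERDJ3B, at a mean of 11.8 RPKM, passed the limit on mean RPKM only through the mutants. Of 6 protein disulfide isomerases 2 rose, against 4.92% higher over all genes. PDIL1-4 rose by 0.67 ± 0.11 and PDIL2-3 by 0.66 ± 0.14, and both take the other sign on the scale of all nuclear genes (-0.01 and -0.03). Neither call held without either Col-0 library or without the first lhp1-3 or second importin123 library (0.63 to 0.72 and 0.61 to 0.70), nor did that of PDIL2-3 without the first importin123 library (0.60) or after floor subtraction (adjusted p = 0.076). NAI2, needed for bodies of the endoplasmic reticulum that store beta-glucosidase, had 128 and 90.1 CPM in the Col-0 pair, 443 and 303 in the lhp1-3 pair and 233 and 303 in the importin123 pair. Its change was 1.56 ± 0.30, with no call without either Col-0 library (1.83 and 1.33) or the second library of either mutant (1.61 and 1.58).

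CYP71B19, a cytochrome P450, rose in all mutant libraries. It had 16.8 and 17.9 CPM in the Col-0 pair, 50 and 43.4 in the lhp1-3 pair and 47.8 and 49.6 in the importin123 pair, a log2 change of 1.46 ± 0.11 (adjusted p = 0.000492), and 1.47 after floor subtraction. The call held without any 1 library. At a mean of 12.5 RPKM, however, CYP71B19 passed the limit on mean RPKM only through the mutants. The choice itself favoured a gap here, and neither the p-value nor the hold lifts that. NSP3, a nitrile specifier protein that directs glucosinolate breakdown, had 13.2 and 21.0 CPM in Col-0 and 43.5 to 69.4 CPM in the mutants, a change of 1.68 ± 0.28. It was lost without either Col-0 library (1.38 and 2.05) and without the second importin123 library (1.64). NSP3, at a mean of 12.5 RPKM, also passed the limit only through the mutants. NSP4 rose by 0.51 ± 0.11 and lost its call without any 1 library (0.48 to 0.54); on the scale of all nuclear genes it changed by -0.18.

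EXT3, AGP31 and SUC2 also rose. EXT3, an extensin needed for the forming wall, had 1270 and 966 CPM in the Col-0 pair, 2200 and 1930 in the lhp1-3 pair and 2360 and 2120 in the importin123 pair, a log2 change of 0.95 ± 0.18. AGP31, an arabinogalactan protein, had 192 and 165 CPM in Col-0 and 304 to 383 CPM in the mutants, a change of 0.93 ± 0.15. Both calls were lost without either Col-0 library (EXT3 1.16 and 0.76, AGP31 1.04 and 0.82), and EXT3 held only without the second lhp1-3 library. Of 26 genes named as extensins 2 rose and 2 fell, against 4.92% higher and 2.88% lower over all genes, with a median of 1.08. SUC2, the sucrose carrier that loads the phloem, rose by 0.50 ± 0.11 on this scale, lost its call without any 1 library (0.45 to 0.55) and changed by -0.19 on the scale of all nuclear genes.

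Immune receptor and near-identical genes made up part of the rises. RPP1, a TIR-NBS-LRR receptor, had 58.8 and 58.6 CPM in the Col-0 pair, 168 and 131 in the lhp1-3 pair and 111 and 123 in the importin123 pair, a log2 change of 1.18 ± 0.18. With a mean of 11.7 RPKM, RPP1 passed the limit of 10 only through the mutants. RPP5 rose by 0.97 ± 0.21. Of 19 genes named as NBS-LRR resistance proteins 6 rose and 0 fell, with a median of 0.61, against 3.26% higher among all protein-coding genes. The group was noticed after its calls were seen, and members such as RPP1 could enter through the mutants alone. RPP1 lost its call without either Col-0 library (1.19 and 1.18), and RPP5 kept it only without the first importin123 library (0.85 to 1.04 without the others) and lost it after floor subtraction (adjusted p = 0.0529). LpxC1, LpxC2 and LpxC3, copies of a gene for lipid A precursor synthesis in mitochondria, rose by 1.12 ± 0.15, 1.14 ± 0.18 and 1.17 ± 0.17. All 3 were lost without either Col-0 library (1.04 and 1.2, 1.05 and 1.23, 1.23 and 1.11), and LpxC2 also without the second importin123 library (1.15). The germin-like AT5G39180 passed the limit of 10 RPKM only through the mutants, at a mean of 10.1. It had 3.68 and 3.84 CPM in Col-0 and 19.1 to 27.9 CPM in the mutants, a change of 2.55 ± 0.20. Reads of such copies can be misplaced: 34 of the 221 protein-coding risers (15.4%) had a near-identical copy, against 1.81% of all and 1 of 122 fallers.

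UPL1, UPL2, TWN2, EMB2107 and HAB1 were among the rises. UPL2, a HECT ubiquitin ligase, had 215 and 176 CPM in the Col-0 pair, 443 and 355 in the lhp1-3 pair and 391 and 401 in the importin123 pair, a log2 change of 1.02 ± 0.15. UPL1 rose by 0.93 ± 0.13 and TWN2, the valyl-tRNA synthetase, by 0.90 ± 0.12. All 3 were lost without either Col-0 library (UPL2 1.18 and 0.89, UPL1 1.02 and 0.84, TWN2 0.99 and 0.82). UPL1 and TWN2, at means of 11.2 and 12.2 RPKM, passed the limit on mean RPKM only through the mutants. EMB2107, a proteasome regulatory subunit, rose by 0.53 ± 0.10, lost its call without any 1 library (0.45 to 0.61) and changed by -0.16 on the scale of all nuclear genes. It was the 1 call among 29 proteasome genes, against 4.92% higher over all genes, and of these 16 lay above Col-0 in all mutant libraries, against 24.1% over all genes. HAB1, a phosphatase that blocks ABA signalling, rose by 0.91 ± 0.19, the 1 call among 18 cold, drought and ABA genes. It kept the call only without the first importin123 library (0.78 to 0.99 without the others) and lost it after floor subtraction (adjusted p = 0.0806). HAB1, at a mean of 11.8 RPKM, passed the limit on mean RPKM only through the mutants.

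The protein-coding risers had longer spans than the fallers. Their median span was 3128 bp, against 1588 bp in the fallers and 2167 bp in all protein-coding genes. Their median level was 13.1 RPKM, against 31.1 and 20.1 RPKM. That level is the mean on which the limit of 10 was set. Risers low in Col-0 could enter just above the limit through the mutants, so their lower level is no separate trait. After subtraction of the floor, 130 of the 221 risers and 75 of the 122 fallers were still called. Of 219 loci named as ribosomal proteins 7 rose and 1, RPL12-B, fell, against 4.92% higher and 2.88% lower over all genes. The list was drawn up by product name, and RPL12-B is a plastid protein. Of the rises 3, AT2G07734, AT2G07696 and AT2G07675, match the mitochondrial genome. The 10 reference genes had a median of -0.05 and 0 calls at an adjusted p under 0.05.

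The mutants differed from each other in 2703 of the 7474 genes (36.2%), and in 40 of the 583 called ones, 14 risers and 26 fallers, a share that the pooled test makes small. Leaving out 1 mutant library moved that 40 to between 8 and 75. AT1G73120, an F-box protein gene, had 179 and 141 CPM in the Col-0 pair, 40.3 and 38.1 in the lhp1-3 pair and 21.7 and 10.5 in the importin123 pair. It fell in both, by 2.03 and 3.32 on the log2 scale, and importin123 minus lhp1-3 was -1.28 ± 0.32. Its pooled call (-2.53 ± 0.50) held only without the second importin123 library. AT1G19550, of a glutathione S-transferase family, rose by 0.97 in lhp1-3 and by 1.77 in importin123. Its pooled call (1.42 ± 0.31) held only without the second lhp1-3 library, with 1.28 to 1.57 without the others. After floor subtraction neither AT1G73120 nor AT1G19550 was called (adjusted p = 0.0537 for both). Both comparisons use the same Col-0 libraries. By contrast IMPA2 changed by -0.16 in lhp1-3 and -3.61 in importin123, COR15A, a cold-induced chloroplast protein, by 0.69 and 6.69, and neither passed the pooled test.

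**Figure D5:**
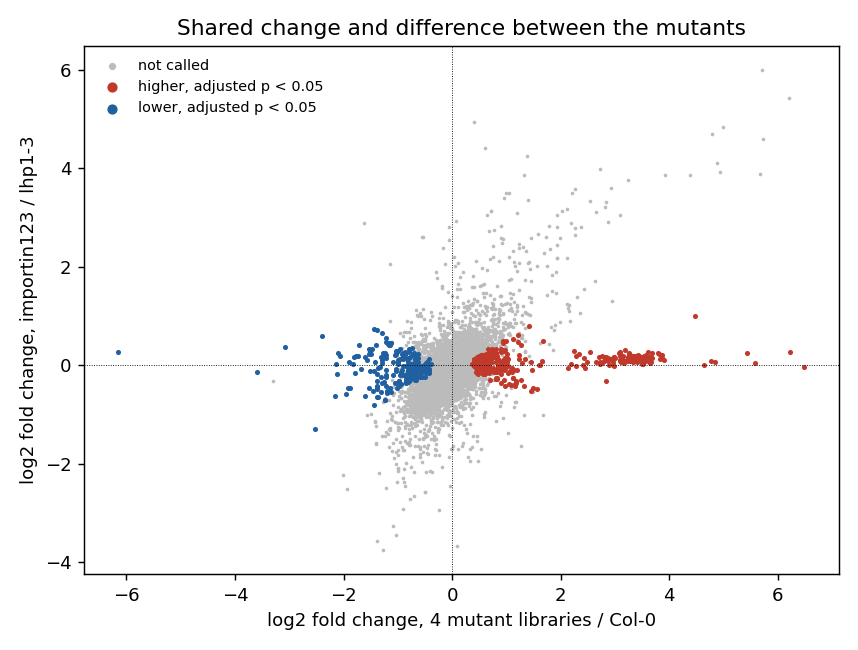
Each point is a gene, with the log2 change of the 4 mutant libraries over Col-0 on the x axis and that of importin123 over lhp1-3 on the y axis. Called genes lie close to the line of no difference, since 40 of 583 differed between the mutants, while 2703 of all 7474 did.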

How the data were processed

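Poly(A) RNA of whole seedlings was sequenced in 6 libraries. The authors deposited raw read counts per gene and RPKM values in 1 table. Per the submitters' processing notes, FastQC, HISAT2, SAMtools, bedtools and edgeR were used with TAIR10; no versions are given, and whether counting used strand is not given in the sources used here. RPKM served to choose genes and to give levels per length.

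The deposited counts of the 7474 genes were scaled by TMM over these genes and tested, 4 mutant libraries against 2, with edgeR 4.0.16 in R 4.3.3 (quasi-likelihood test, robust, Benjamini-Hochberg adjusted p under 0.05). The SE is that of the log2 fold change. CPM are counts scaled to the TMM-adjusted total. The script was tested on simulated data. Library measures were compared by an exact permutation test. Matches to organelle genomes were found with BLAST 2.17.0 (at least 95% identity over at least 100 bp), and loci within 10000 bp of an rRNA gene were set apart. Gene products and sequences came from RefSeq TAIR10.1. The floor is the median RPKM of silent genes, subtracted per library in 1 alternative.

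The genes described and the lists were chosen with earlier results of these data known. Named genes were the 12 largest rises and falls with a symbol whose groups did not overlap, the 6 of highest level per direction, up to 4 per direction on each list, and the 5 called genes per direction with the largest difference between the mutants. A further 40 loci were picked with their values in view. Other normalizations, tools, filters, scales, a replicate block and leaving out each library were tried, with DESeq2 1.42.0 and limma 3.58.1.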

Additional observations from a re-analysis of the deposited data

Results flagged for a closer look

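Among 109 sets of 4 mutant libraries, 4 held a library far from the other 3, and chance flags about 1 in 20 such sets. The gap took up 0.947 of the range for the mitochondrial share of counts, where the first importin123 library was highest. It took up 0.867 of the range for ROF1, where the first lhp1-3 library was highest, 0.941 for SUC2, where the second importin123 library was highest, and 0.916 for AT1G80930, where the second lhp1-3 library was lowest.

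The mutants differed from each other (edgeR's quasi-likelihood test, adjusted over all genes) in 16 of the called genes named. Importin123 lay above lhp1-3, on the log2 scale, by 0.60 for LBD32, 0.45 for BIP2, 0.42 for AT1G23410, 0.79 for AT1G19550, 0.71 for AT3G05730, 0.67 for AT4G06705, 0.63 for AT2G34300 and 0.32 for PDIL2-3. The difference of importin123 from lhp1-3 was -0.80 for MIR1888a, -0.51 for HIR2, -0.42 for EMB1865, -1.28 for AT1G73120, -0.70 for AT4G27657, -0.69 for AT3G45730, -0.64 for AT1G18740 and -0.29 for COPT1.

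Outside the genes described, chloroplast features took at least 13.7% and mitochondrial features at least 0.457% of the counts in each mutant library, above both Col-0 libraries.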

How the results depend on the processing

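The counts of 368 higher and 215 lower genes depended on the fit. They were 907 and 723 with DESeq2, 1599 and 1850 with a mean for each genotype, 111 and 61 at a mean of at least 30 RPKM, 90 and 96 with at least 10 RPKM in both groups, and 150 and 18 with a 2-fold minimum. They were 14076 and 9187 over all nuclear genes with a count and 14316 and 10752 over all features that pass edgeR's filter, where the median gene described stood at -0.68 and -0.76. With limma on log2(RPKM + 1) and log2(RPKM + 0.1) 1731 and 1684 genes were lower. The lhp1-3 libraries alone gave 726 and 679 and those of importin123 alone 1904 and 2028. In alternatives chosen after seeing the data, 153 genes were higher without organelle or rRNA-region matches, 26 higher and 17 lower among protein-coding genes, and 54 and 79 with the floor subtracted as well. Without 1 library the counts were 156 to 289 and 35 to 128, and 8 to 75 of the called genes differed between the mutants in place of 40. The cause of these shifts was not tested.

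Same-numbered libraries did not deviate together (r of deviations -0.112, 0.0722 and -0.00886), so the numbers were not taken to pair them. With a replicate block 197 genes were higher and 82 lower.

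On the scale of all nuclear genes and of all filtered features, the sign turned for IMPA4, not called (-0.51 and -0.59), NSP4 (-0.18 and -0.26), SUC2 (-0.19 and -0.27), EMB2107 (-0.16 and -0.24), the histone locus AT1G07660 (-0.14 and -0.22), PDIL1-4 (-0.01 and -0.10) and PDIL2-3 (-0.03 and -0.12). With 2 Col-0 libraries, small changes could not be resolved.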

Other observations

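The following families were noticed after their calls were seen, and their counts stand against 4.92% higher and 2.88% lower over all genes. Of 8 coatomer subunits, which coat vesicles returning to the endoplasmic reticulum, 3 rose and 0 fell (edgeR, adjusted p), with a median log2 change of 0.51. Of 28 aminoacyl-tRNA synthetases 4 rose, with a median of 0.07. Of 20 GDSL lipases 3 fell, with a median of -0.08, and of 9 nudix hydrolases 2 fell, with a median of -0.26. The 8 root marker genes had a median of 0.43 and 0 calls, and the 5 measured seed reserve genes stood at a median of -1.58 in lhp1-3 and 1.35 in importin123.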
